A study of Arabidopsis thaliana with 6 samples.

Results

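The genes described here make, activate, break down and sense cytokinin, or carry its signal to the nucleus, in the shoot apex of *Arabidopsis thaliana*. They were chosen by gene identifier as the isopentenyltransferases (IPT), the hydroxylases *CYP735A1* and *CYP735A2*, the LONELY GUY (LOG) activating enzymes, the cytokinin oxidases/dehydrogenases (CKX), the receptors *AHK2*, *AHK3* and *AHK4*, the histidine phosphotransfer proteins (AHP) and the type-B response regulators (ARR). The set follows gene families and uses no cut on a measured value, but it was drawn up with earlier results of these data known. Of 37 identifiers, 35 were among the 24340 genes with expression values, and 2 (1 *CKX* and 1 type-B *ARR* gene) were not analysed here. A mean of at least 0.5 TPM, a transcript abundance corrected for gene length and sequencing depth, over all samples was reached by 27 of the 35 genes, which were tested, and 8 lay below it. All samples were shoot apices of *ap1 cal* double mutants, in which inflorescence and young floral meristems accumulate in place of flowers, so that the apices are rich in meristem but are not those of wild-type plants. Both groups received 0.025% Silwet, a wetting agent, for 24 h. The 3 Mock samples had no further addition, and the 3 SNP samples also had 1 mM sodium nitroprusside, a donor of nitric oxide that also contains iron and cyanide. The samples are called biological replicates in the study's methods, and the question was how the nitric oxide donor changes transcript levels in meristems.

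Cytokinins are adenine derivatives that promote cell division in shoot meristems. IPT enzymes attach the isoprenoid side chain, CYP735A enzymes hydroxylate it to give the trans-zeatin type, and LOG enzymes release the active base from its nucleotide, while CKX enzymes cleave the side chain and inactivate the hormone. The active base binds the AHK receptor kinases, from which a phosphate passes through AHP proteins to the type-B ARRs, the transcription factors that switch on cytokinin target genes.

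Between 51879530 and 99089586 reads were counted per sample, as recovered from the deposited TPM values. Transcripts of the shoot meristem were present in both groups, with a summed level of 5 markers (*STM*, *KNAT1*, *CLV3*, *LFY* and *UFO*) of 281 to 332 TPM in Mock and 282 to 325 TPM in SNP samples, and 1 of the 5, *UFO*, was higher after SNP. The levels of other tissues' markers differed more. The 4 vascular markers summed to 30.9 to 47.0 TPM in Mock and 75.5 to 84.1 TPM in SNP samples, the largest part from *SUC2*. Of the 4, 2 (*SUC2* and *XCP1*) were higher, while *APL* (log2 fold change 0.19) and *IRX3* (0.65) did not pass the test. The 4 floral organ markers summed to 16.4 to 23.5 and 6.16 to 15.0 TPM, with 0 of 4 passing the test in limma at an adjusted p under 0.05 (2 had an unadjusted p under 0.05). Among all tested genes 16.6% were higher and 13% lower after SNP at that adjusted p. The 3 leaf markers summed to 1954 to 2792 and 2566 to 3202 TPM, nearly all of it from *RBCS1A*. That gene did not pass the test (log2 fold change 0.33), and 1 of 3 (*LHCB2.1*) was lower, at -0.89. *LHCB1.1* also had a negative estimate (-0.64) but did not pass, so the sum does not describe these 2 markers. The 2 root markers with values summed to 5.44 to 9.89 and 19.7 to 38.2 TPM, nearly all of it from *PYK10*, since the root hair gene *COBL9* had at most 3 reads in any sample. The part of these tissues in the results below was not tested, and in whole apices fewer cells of a type and less RNA per cell cannot be told apart. The mutated genes themselves gave transcripts, *AP1* at 1.82 to 3.41 TPM and *CAL* at 22.1 to 34.6 TPM, so their levels do not check the genotype.

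Mock 1 stood apart from the other samples in a way that touches the longest of these genes. Of the 11 tested genes with merged exons of at least 2000 bases, 10 were lower in Mock 1 than in the mean of Mock 2 and Mock 3, by a median log2 difference of -0.60, the exception being *ARR11*. Of the 16 shorter genes 5 were lower, with a median of 0.02 and values from -0.14 to 0.46. *AHP3* (0.46), *LOG5* (0.43), *LOG7* (0.41) and *AHP2* (0.39) were the furthest above 0. Among all tested genes the corresponding medians were -0.38 for genes of at least 2000 bases and -0.0010 for shorter ones. The 3 receptors, with exon lengths from 4459 to 4575 bases, and the type-B regulators *ARR1*, *ARR10* and *ARR12* were among the affected genes, and results for them are therefore also given without Mock 1.

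**Figure D1:**
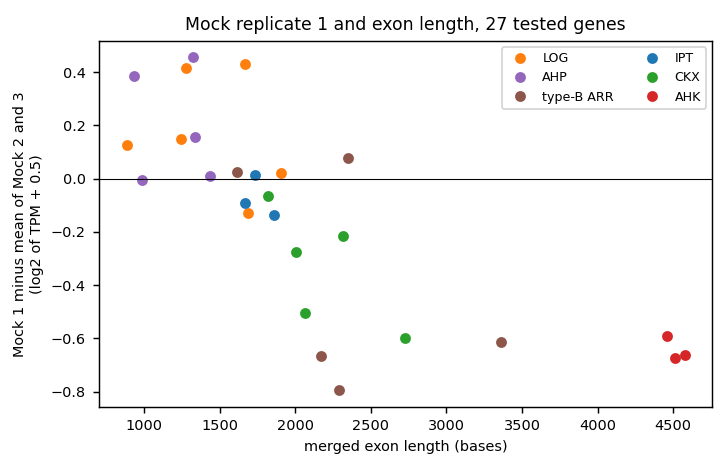
Each point is 1 of the 27 tested cytokinin genes, by the merged length of its exons in bases (horizontal axis) and the log2 difference of TPM + 0.5 between Mock 1 and the mean of Mock 2 and Mock 3 (vertical axis). Genes of at least 2000 bases lie at a median of -0.60, and the 3 receptor genes, the longest, all lie below 0.

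Differences between SNP and Mock were tested with limma on log2(TPM + 0.5), with Benjamini-Hochberg adjustment over all 18966 genes that reached the mean of 0.5 TPM. An adjusted p under 0.05 was reached by 10 of the 27 tested cytokinin genes, against 29.6% of all tested genes. The genes that rose were *LOG5*, *AHK3*, *AHP1*, *ARR1* and *ARR11*, 5 of 27 against 16.6% of all genes, and the genes that fell were *LOG4*, *LOG8*, *CKX3*, *AHP5* and *ARR14*, 5 of 27 against 13% of all genes. The balance of directions over all genes, 3152 higher and 2467 lower, turned to 2804 higher and 3185 lower with 75th percentile scaling and to 3920 and 4004 without Mock 1. With 10 of 27 the share of changed genes was 37%, near the 29.6% of the background, and the median log2 fold change of the 27 genes was -0.08 beside 0.06 for all genes. The study's own criterion, 1.5-fold or more at an unadjusted p under 0.01, was applied here to the limma fit, whereas the study used DEGseq. It was passed by the 5 genes that rose and by none of those that fell, against 16.9% of all genes in either direction (10.5% higher and 6.4% lower). The 3 SNP values lay wholly above or below the 3 Mock values in 12 of the 27 genes, and in 51.2% of all genes. Without Mock 1, 15 of the 27 genes had an adjusted p under 0.05, 6 higher and 9 lower, against 41.8% of all genes.

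**Figure D2:**
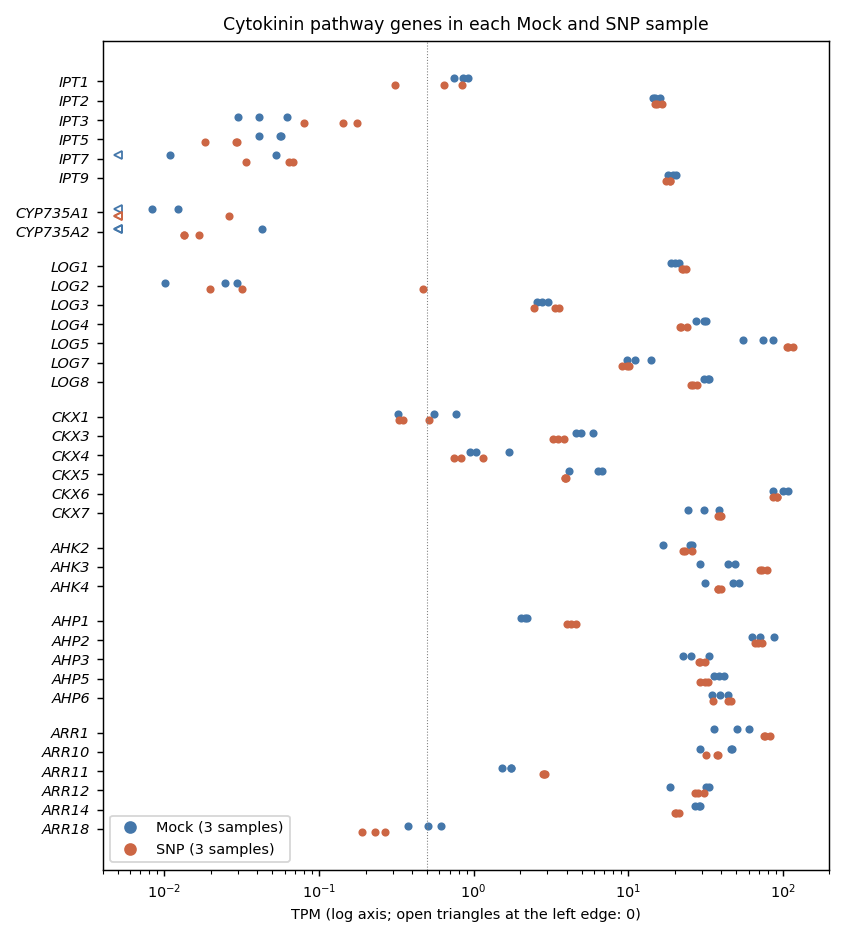
TPM (log axis) of the 35 cytokinin genes with values, grouped by family, with 1 point for each of the 3 Mock samples (blue) and 3 SNP samples (orange), open triangles for 0 and a dotted line at 0.5 TPM. *CKX6*, *LOG5*, *AHP2*, *AHK3* and *ARR1* reach the highest levels, while *CYP735A1*, *CYP735A2*, *IPT3*, *IPT5* and *IPT7* lie at the left, all below the dotted line.

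**Figure D3:**
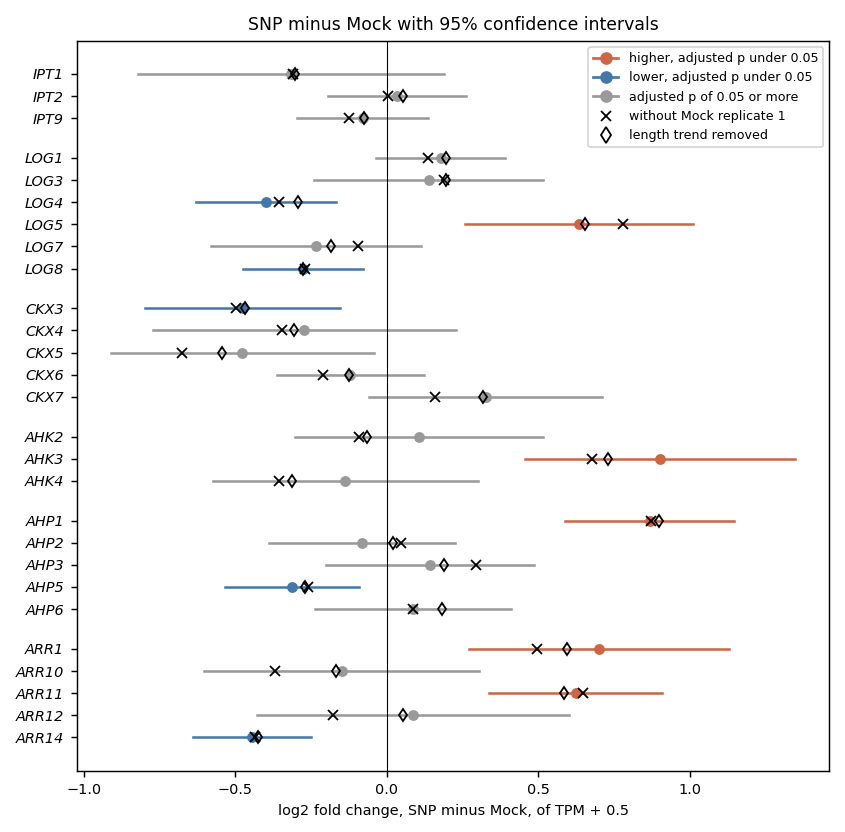
Fitted log2 fold changes (SNP minus Mock, TPM + 0.5) of the 27 tested genes with 95% confidence intervals, orange for genes that rose and blue for genes that fell at an adjusted p under 0.05 in limma, and grey for the rest. Crosses give the estimate without Mock 1 and diamonds the estimate with the trend along exon length removed. *AHK3* and *AHP1* have the largest estimates, 0.90 and 0.87.

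Of the 6 *IPT* genes, 3 were tested, and none of these 3 passed the test or had an unadjusted p under 0.05 in limma. The other 3 lay below the filter, and the genes whose enzymes start from ATP or ADP were barely transcribed in these apices. The family's signal came from *IPT9* (AT5G20040) and *IPT2* (AT2G27760), which act on tRNA and are the source of cis-zeatin. *IPT9*, the highest of the family, was at 18.1, 19.4 and 20.4 TPM in Mock 1, 2 and 3 and at 17.5, 18.7 and 18.5 TPM in SNP 1, 2 and 3. The groups overlapped, with a log2 fold change of -0.08 (95% confidence interval -0.30 to 0.14, adjusted p = 0.546 from limma). *IPT2* lay between 14.5 and 16.6 TPM in all 6 samples, with a log2 fold change of 0.03 and an interval from -0.20 to 0.26. Together the pair made up 32.6 to 35.5 TPM in Mock and 33.5 to 34.1 TPM in SNP samples, whereas the 4 genes that act on ATP or ADP, *IPT1*, *IPT3*, *IPT5* and *IPT7*, summed to 0.919 to 1.03 TPM and 0.585 to 1.01 TPM.

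*IPT1* (AT1G68460) accounted for nearly all of that remainder and was the only ATP/ADP-type gene high enough to be tested, at a log2 fold change of -0.32 (interval -0.82 to 0.19, adjusted p = 0.301 from limma). Its lowest sample, SNP 3, had 20 reads. *IPT3* (AT3G63110), known in the phloem and for its response to nitrate, had between 2 and 11 reads in each sample. It was at 0.0300, 0.0622 and 0.0410 TPM in Mock and at 0.144, 0.0800 and 0.177 TPM in SNP samples. The groups did not overlap, and with no filter its log2 fold change was 0.22 (adjusted p = 0.0631 from limma). On so few reads no more is drawn from this gene. *IPT5* had between 1 and 6 reads and *IPT7* between 0 and 4. The hydroxylases *CYP735A1* (AT5G38450) and *CYP735A2* (AT1G67110), which lead to trans-zeatin, had at most 2 and 5 reads, and both were listed at 0 in some samples. In the samples where a gene was listed at 0, the 3-read limit corresponds to at most 0.0487 TPM, which covers counting error only. Differences between the groups were not detectable at this depth.

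The LOG family, which performs the last step to the active base, was by contrast well expressed and changed in both directions. *LOG5* rose while *LOG4* and *LOG8* fell, and the family's summed level moved from 149 to 187 TPM in Mock to 191 to 204 TPM in SNP samples. *LOG5* (AT4G35190), the highest of the family, was at 86.6, 74.3 and 55.4 TPM in the Mock samples and at 116, 107 and 108 TPM in the SNP samples. Every SNP sample was above every Mock sample, and Mock 3 was the lowest of all. The log2 fold change was 0.63 (SE 0.16, adjusted p = 0.0245 from limma), or 1.55-fold on the scale of TPM + 0.5 (95% confidence interval 1.20 to 2.02). The direction was the same in all 16 alternative settings, but the adjusted p from limma was 0.05 or more without Mock 2 (0.0505), SNP 1 (0.0877), SNP 2 (0.0664) or SNP 3 (0.0769), and under both other scalings (up to 0.0682). Without Mock 1, its highest Mock sample, the log2 fold change of *LOG5* was 0.78 (adjusted p = 0.00422 from limma). Without Mock 3 it was 0.46 (adjusted p = 0.0314 from limma).

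*LOG4* (AT3G53450), which is known from the outermost cell layer of the shoot meristem, was at 31.6, 30.8 and 27.3 TPM in Mock and at 24.0, 22.1 and 21.5 TPM in SNP samples. All 3 SNP values were below all 3 Mock values, with a log2 fold change of -0.40 (SE 0.10, adjusted p = 0.0222 from limma). *LOG8* (AT5G11950) showed the same arrangement at similar levels, with 32.6, 30.8 and 33.4 TPM in Mock and 27.7, 26.2 and 25.6 TPM in SNP samples. The decrease of *LOG8* was the smallest of those that passed, at a log2 fold change of -0.28 (SE 0.08, adjusted p = 0.0449 from limma). Neither fall reached a fold change of 1.5. The adjusted p of *LOG4* from limma was between 0.0554 and 0.106 without Mock 2 or any 1 of the SNP samples, and that of *LOG8* was between 0.0528 and 0.185 without any 1 sample other than Mock 1 and 0.0939 when the replicate number entered as a block.

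The remaining *LOG* genes did not pass the test. *LOG1* (AT2G28305) lay at 18.9 to 21.4 TPM in Mock and 22.2 to 23.6 TPM in SNP samples, separated but at a log2 fold change of only 0.18 (interval -0.03 to 0.39, adjusted p = 0.178 from limma). *LOG7* (AT5G06300), another gene active in the shoot apex, lay at 9.81 to 14.01 and 9.09 to 10.1 TPM (log2 fold change -0.23, interval -0.58 to 0.11), and *LOG3* (AT2G37210) at 2.47 to 3.58 TPM over all samples (0.14, interval -0.24 to 0.52). *LOG2* (AT2G35990) was nearly silent except in 1 library, with 30 reads and 0.474 TPM in SNP 1 and at most 0.0318 TPM in the other 5 samples.

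Among the oxidases that break cytokinin down, the abundant genes did not pass the test and 1 gene of low level fell. *CKX6* (AT3G63440), the highest of the family, was at 85.8, 108 and 100.1 TPM in Mock and at 91.1, 86.0 and 91.9 TPM in SNP samples. Mock 1 was lower than Mock 2 and Mock 3, and the groups overlapped, with a log2 fold change of -0.12 (interval -0.36 to 0.12, adjusted p = 0.411 from limma). *CKX7* (AT5G21482), which encodes the oxidase of the cytosol, was at 24.4, 38.9 and 31.1 TPM and at 39.0, 39.7 and 38.1 TPM (log2 fold change 0.33, interval -0.06 to 0.71, adjusted p = 0.172 from limma). Its lowest value was again that of Mock 1, while Mock 2 lay within the range of the SNP samples. Without Mock 2 the log2 fold change of *CKX7* was 0.49 (adjusted p = 0.0368 from limma), and without Mock 1 it was 0.16 (adjusted p = 0.240 from limma). The deposited table gives this gene and *CKX5* the same symbol, and they were told apart by identifier.

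*CKX3* (AT5G56970), which is transcribed in the centre of the shoot meristem and limits its size together with *CKX5*, fell after SNP. It was at 4.93, 5.88 and 4.56 TPM in Mock and at 3.83, 3.24 and 3.52 TPM in SNP samples, on 177 to 516 reads. No SNP value reached the lowest Mock value, and the log2 fold change was -0.48 (SE 0.14, adjusted p = 0.0383 from limma). Leaving out any 1 sample other than Mock 1 gave *CKX3* an adjusted p between 0.0514 and 0.125 in limma, and the replicate block gave 0.0691.

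*CKX5* (AT1G75450), the partner of *CKX3* at the meristem, was at 4.15, 6.76 and 6.34 TPM in Mock and at 3.89, 3.90 and 3.94 TPM in SNP samples. The SNP samples lay close together and below all Mock samples, with Mock 1 only just above them. The fitted log2 fold change, -0.48, equalled that of *CKX3* to 2 decimals, but its interval was wider (-0.91 to -0.04, adjusted p = 0.0926 from limma). Without Mock 1 the value for *CKX5* was -0.68 (adjusted p = 0.00317 from limma), and that for *CKX6* was -0.21 (adjusted p = 0.0437 from limma). With the length trend removed *CKX5* was at -0.54 (adjusted p = 0.0202 from limma). *CKX4* (AT4G29740) lay at 0.748 to 1.69 TPM with a log2 fold change of -0.27 (interval -0.77 to 0.23), and *CKX1* (AT2G41510), below the filter, at 0.327 to 0.764 TPM. Summed over the 6 *CKX* genes with values, the level was 121 to 161 TPM in Mock and 134 to 139 TPM in SNP samples.

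The receptors diverged. *AHK3* rose, *AHK2* and *AHK4* did not pass the test, and *AHK3* went from about the level of *AHK4* to the most abundant receptor transcript. *AHK3* (AT1G27320), the receptor best known for delaying leaf senescence, was at 28.9, 48.9 and 44.1 TPM in Mock 1, 2 and 3 and at 71.6, 78.7 and 73.7 TPM in SNP 1, 2 and 3. The SNP samples were close together and all above the highest Mock sample, and Mock 1 was the lowest. The Mock mean was 40.7 ± 10.4 TPM (SD, n = 3) and the SNP mean 74.7 ± 3.67 TPM (SD, n = 3), on 5234 to 12390 reads, with a log2 fold change of 0.90 (SE 0.19, adjusted p = 0.0128 from limma) and a 1.87-fold increase (95% confidence interval 1.37 to 2.55). A two-sided exact permutation test gave p = 0.1, the smallest value that 3 samples against 3 allow.

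The rise of *AHK3* held without the sample that stood apart. Without Mock 1 its log2 fold change was 0.68 (adjusted p = 0.00127 from limma), and with the length trend removed it was 0.73 (adjusted p = 0.000512 from limma). In all 16 alternative settings its adjusted p from limma stayed under 0.05, the highest being 0.0492 without SNP 2. Of the 27 tested genes, *AHP1* was the only other one for which this was so.

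*AHK4* (AT2G01830), also known as *CRE1* or *WOL*, was at 31.3, 52.2 and 47.5 TPM in Mock and at 38.0, 38.3 and 40.1 TPM in SNP samples. Mock 1 lay below all SNP samples, whereas Mock 2 and Mock 3 lay above them. The log2 fold change over all 6 samples was -0.14 (interval -0.57 to 0.30, adjusted p = 0.608 from limma). Without Mock 1 *AHK4* was lower after SNP at -0.36 (adjusted p = 0.00790 from limma), and with the length trend removed at -0.31 (adjusted p = 0.0192 from limma), so that its call rests on how Mock 1 is treated. Without Mock 2 its estimate was 0.0071. *AHK2* (AT5G35750) was at 16.8, 25.8 and 25.2 TPM and at 23.4, 25.9 and 22.7 TPM, again with Mock 1 as the lowest sample. Its log2 fold change was 0.11 (interval -0.30 to 0.52, adjusted p = 0.676 from limma) and turned to -0.09 without Mock 1 and -0.06 with the length trend removed.

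The make-up of the receptor pool was far steadier between replicates than the levels. *AHK3* made up 37.6%, 38.5% and 37.7% of the summed receptor TPM in Mock 1, 2 and 3 and 53.8%, 55.1% and 54.0% in SNP 1, 2 and 3. *AHK4* made up 40.6%, 41.1% and 40.7% and then 28.6%, 26.8% and 29.3%, and *AHK2* 20.3% to 21.8% and then 16.6% to 18.1%. Mock 1, which had the lowest level of every receptor, did not stand apart in these shares, and the exons of the 3 genes are of nearly equal length. The ratio of *AHK3* to *AHK4* was 0.925, 0.938 and 0.928 in Mock and 1.88, 2.06 and 1.84 in SNP samples. The groups were thus separated in each of these shares. The shares are parts of the same sum, so a larger share of *AHK3* lowers those of *AHK2* and *AHK4* even where their own levels do not fall. Shares and ratio are given as a description with no test, since the choice of ratios followed a look at the values. The summed level of the receptors was 77.0 to 127 TPM in Mock and 133 to 143 TPM in SNP samples.

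**Figure D4:**
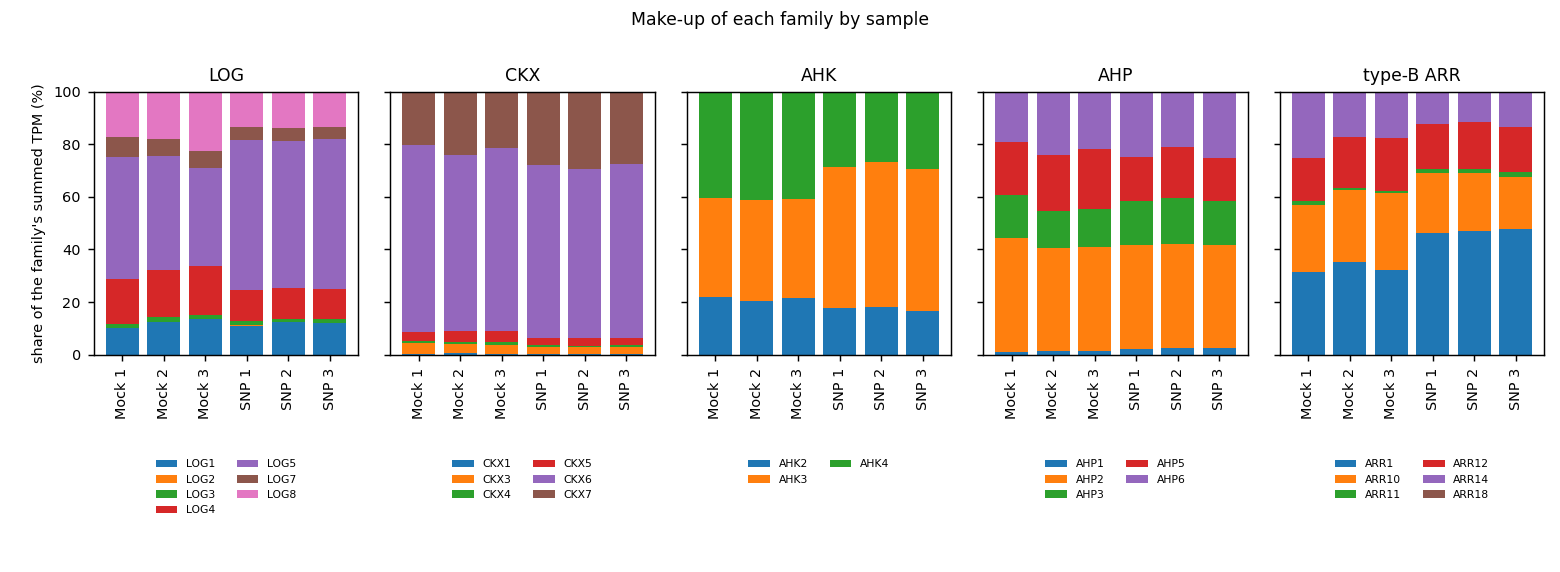
Stacked bars give, for each of the 6 samples, the share of each gene in the summed TPM of its family in percent, for the LOG, CKX, AHK, AHP and type-B ARR genes with values. The *AHK3* share is 37.6% to 38.5% in Mock and 53.8% to 55.1% in SNP samples, and the *ARR1* share is 31.4% to 35.3% and 46.2% to 47.6%.

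Of the phosphotransfer proteins, the least abundant gene rose, 1 fell and the others did not pass the test. *AHP1* (AT3G21510) was at 2.14, 2.21 and 2.03 TPM in Mock and at 4.25, 4.03 and 4.60 TPM in SNP samples. The replicates were close together in both groups, and the SNP samples were well above the Mock samples. Its Mock mean was 2.12 ± 0.0885 TPM (SD, n = 3) and its SNP mean 4.29 ± 0.284 TPM (SD, n = 3), on 123 to 246 reads, with a log2 fold change of 0.87 (SE 0.12, adjusted p = 0.00266 from limma). This was the lowest adjusted p of the 27 genes. The estimate lay between 0.76 and 0.98 in the 16 alternative settings, with an adjusted p of at most 0.0204 in limma.

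*AHP5* (AT1G03430), a positive element of the signaling chain, was at 41.5, 38.7 and 35.7 TPM in Mock and at 31.2, 32.6 and 29.2 TPM in SNP samples. All SNP values were below all Mock values, at a log2 fold change of -0.31 (SE 0.09, adjusted p = 0.0443 from limma). Its adjusted p from limma was between 0.0832 and 0.179 without Mock 2 or any 1 SNP sample and 0.0639 with the replicate block. The most abundant phosphotransfer gene, *AHP2* (AT3G29350), was at 87.9, 71.6 and 62.9 TPM in Mock and at 73.4, 66.3 and 68.7 TPM in SNP samples. The SNP values lay inside the range of the Mock values, with a log2 fold change of -0.08 (interval -0.39 to 0.23, adjusted p = 0.670 from limma).

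*AHP3* (AT5G39340) lay at 22.6 to 33.2 TPM in Mock and 28.7 to 31.2 TPM in SNP samples, with a log2 fold change of 0.14 (interval -0.20 to 0.49). Without Mock 1, the sample with the highest *AHP3* value, it was 0.30 (adjusted p = 0.0275 from limma). *AHP6* (AT1G80100), a pseudo-phosphotransfer protein that inhibits the chain and is known from young organ primordia, was at 38.9, 43.9 and 34.8 TPM in Mock and at 46.2, 35.1 and 44.1 TPM in SNP samples. SNP 1 and SNP 3 lay just above the highest Mock sample and SNP 2 near the lowest, and the log2 fold change was 0.09 (interval -0.24 to 0.41, adjusted p = 0.659 from limma). In the Mock samples the level of this inhibitor spanned that of *AHP5*. The summed level of the 5 genes was 158 to 204 TPM in Mock and 167 to 186 TPM in SNP samples, of which *AHP1* made up 1.05% to 1.28% and 2.28% to 2.62%.

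The type-B regulators, the transcription factors at the end of the chain, split into genes that rose (*ARR1* and *ARR11*), a gene that fell (*ARR14*) and 2 that did not pass (*ARR10* and *ARR12*). *ARR1* (AT3G16857), a main mediator of the cytokinin response, was at 35.9, 60.7 and 50.3 TPM in Mock and at 76.3, 82.1 and 76.0 TPM in SNP samples. Every SNP sample was above every Mock sample, and Mock 1 was the lowest. Its Mock mean was 49.0 ± 12.5 TPM (SD, n = 3) and its SNP mean 78.1 ± 3.44 TPM (SD, n = 3), with a log2 fold change of 0.70 (SE 0.18, adjusted p = 0.0272 from limma), or 1.62-fold (95% confidence interval 1.21 to 2.19). Without Mock 1 *ARR1* was at 0.49 (adjusted p = 0.00737 from limma), below the fold change of 1.5. The adjusted p of *ARR1* from limma was 0.0628 without Mock 3 and from 0.078 to 0.0879 without any 1 SNP sample.

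*ARR11* (AT1G67710) was a minor member of the family, at 1.75, 1.75 and 1.53 TPM in Mock and at 2.82, 2.85 and 2.88 TPM in SNP samples. The replicates of each group were close together and the groups far apart. Its log2 fold change was 0.62 (SE 0.12, adjusted p = 0.00983 from limma), on 165 to 252 reads. *ARR14* (AT2G01760) showed the same tightness in the other direction, at 28.5, 28.9 and 27.1 TPM in Mock and at 20.1, 20.3 and 21.3 TPM in SNP samples. Its log2 fold change was -0.45 (SE 0.08, adjusted p = 0.00843 from limma), a 0.734-fold level (95% confidence interval 0.641 to 0.841). Both genes lost the call in 1 of the 16 alternative settings, *ARR11* without SNP 3 (adjusted p = 0.0508 from limma) and *ARR14* without SNP 1 (adjusted p = 0.0508 from limma).

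*ARR10* (AT4G31920) and *ARR12* (AT2G25180), which act with *ARR1* in most cytokinin responses, overlapped between the groups. *ARR10* was at 29.0, 46.6 and 46.1 TPM in Mock and at 37.5, 38.0 and 32.0 TPM in SNP samples, and *ARR12* at 18.6, 33.4 and 31.8 TPM and at 28.2, 30.9 and 27.1 TPM. In both genes Mock 1 was the lowest sample and Mock 2 the highest. Their log2 fold changes were -0.15 (interval -0.60 to 0.31, adjusted p = 0.590 from limma) and 0.09 (interval -0.43 to 0.60, adjusted p = 0.794 from limma). Without Mock 1 they were -0.37 (adjusted p = 0.0179 from limma) and -0.18 (adjusted p = 0.110 from limma). *ARR18* (AT5G58080), below the filter, was at 0.379, 0.620 and 0.510 TPM in Mock and at 0.266, 0.190 and 0.229 TPM in SNP samples. Its groups did not overlap, on 12 to 63 reads, and with no filter its log2 fold change was -0.46 (adjusted p = 0.0225 from limma). At this level the added 0.5 TPM compresses the change, with means of 0.503 TPM in Mock and 0.228 TPM in SNP samples.

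The summed type-B level overlapped between the groups, at 114 to 172 TPM in Mock and 160 to 174 TPM in SNP samples. Within this sum the share of *ARR1* was 31.4%, 35.3% and 32.0% in Mock and 46.2%, 47.1% and 47.6% in SNP samples. *ARR10* took 25.4% to 29.3% and then 20.0% to 22.7%. *ARR14* took 25.0%, 16.8% and 17.2% in Mock 1, 2 and 3 and then 11.7% to 13.4%. These shares too are parts of the same sum, so a larger share of *ARR1* lowers the others. Unlike the receptors, these genes differ in exon length, with 3358 bases in *ARR1*, 2172 in *ARR10* and 1618 in *ARR14*. How far the departure of Mock 1 along exon length enters these shares was not tested. The ratio of *ARR1* to *ARR10* was 1.24, 1.30 and 1.09 in Mock and 2.03, 2.16 and 2.38 in SNP samples. In the LOG family the ratio of *LOG5* to *LOG4* was 2.74, 2.41 and 2.03 in Mock and 4.85, 4.84 and 5.02 in SNP samples. The exons of these genes also differ in length, with 1666 bases in *LOG5* and 884 in *LOG4*. For the receptor, type-B and LOG pairs all SNP values exceeded all Mock values, and the mean ratio in SNP samples was 2.07, 1.81 and 2.05 times that in Mock samples. The choice of these pairs also came after a look at the values, and no test was run on them.

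**Figure D5:**
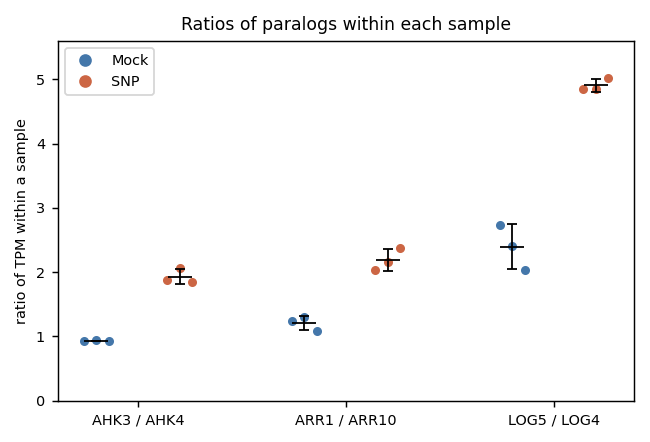
Ratio of TPM of 2 genes of a family within each sample (vertical axis, no unit), for *AHK3* over *AHK4*, *ARR1* over *ARR10* and *LOG5* over *LOG4*, with 1 point per sample (Mock blue, SNP orange) and bars for the mean ± SD of 3 samples. The *AHK3* to *AHK4* ratio is 0.925 to 0.938 in Mock and 1.84 to 2.06 in SNP samples.

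Other genes of the cytokinin pathway, counted from lists of its further steps, are given by count, beside the same shares of all tested genes, and nothing particular to a list is read from them. Of the type-A *ARR* genes, primary cytokinin targets that restrain the response, 1 of 8 tested rose and 2 fell, beside 16.6% and 13% of all tested genes. *ARR15* fell past the study's criterion, from 13.6, 20.5 and 26.2 TPM in Mock to 11.0, 10.7 and 11.1 TPM in SNP samples (log2 fold change -0.80, SE 0.22, adjusted p = 0.0322 from limma). Mock 1 was the nearest of the Mock samples to the SNP samples, which lay close together. The cytokinin response factors, AP2/ERF transcription factors of a side branch of the pathway, had 2 of 6 higher and 1 lower, beside 16.6% and 13% of all genes. *CRF6* rose by 1.51 and *CRF5* by 0.79 on the log2 scale, and *CRF1* fell by 0.84 (adjusted p = 0.000337, 0.0158 and 0.00778 from limma).

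The KMD proteins are Kelch-repeat F-box proteins that target type-B ARRs for degradation, and 2 of 3 tested genes rose, beside 16.6% of all genes. *KMD1* was at 31.5, 125 and 28.8 TPM in Mock and at 247, 269.7 and 256 TPM in SNP samples, and *KMD4* was at 84.0, 112 and 49.4 TPM and at 205, 243 and 207 TPM. In both genes Mock 2 was the highest Mock sample, and no Mock value reached the SNP values. The log2 fold changes were 2.40 (SE 0.52, adjusted p = 0.0142 from limma) and 1.48 (SE 0.27, adjusted p = 0.00824 from limma).

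Among the glucosyltransferases that conjugate cytokinins, 3 of 5 tested genes, which can form O-glucosides, rose, beside 16.6% of all genes, and the other 2 did not pass the test. The Mock mean of *UGT85A1* was 3.85 ± 0.407 TPM (SD, n = 3) and its SNP mean 16.6 ± 5.81 TPM (SD, n = 3), with a log2 fold change of 1.92 (adjusted p = 0.0017 from limma). *UGT73C5* and *UGT73C1* had log2 fold changes of 3.86 (adjusted p = 5.53e-05 from limma) and 2.90 (adjusted p = 0.000308 from limma). The *UGT73C* genes are close copies that also act on other substrates, and how reads shared between them were counted is not known. Of the transporter genes 1 of 5 tested rose and 0 fell, and of the genes that return cytokinin bases to nucleotides 0 of 3 rose and 1 fell, again beside 16.6% higher and 13% lower among all genes. Further *IPT*, *LOG*, *AHP* and type-B *ARR* genes outside the chosen set were below the filter where they had values (4 of 9), the highest being *LOG6* at 0.237 to 0.655 TPM.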

How the data were processed

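Shoot apices of 3 Mock and 3 SNP samples were profiled by strand-specific mRNA sequencing, and groups were taken from the sample labels. STAR was used by the authors to align reads to TAIR10, and the values they deposited are TPM of 24340 genes. FastQC and DESeq2 also appear in the submitters' processing notes, and DEGseq in the methods. The counting tool, gene lengths and filter are not given in the sources used here. The deposited table also holds the authors' log2 fold changes and p-values, which were not used.

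The genes and gene lists were chosen with earlier results of these data known. Described in full are genes with an adjusted p under 0.05 or past the study's criterion and the highest gene of each family, and further pathway genes are named where they passed both, or by level where they belong to the same families. Tissue markers are named from their lists. TPM multiplied by merged exon length (TAIR10.1 annotation) gave whole multiples of 1 step per sample, within 0.05, for 99.4% of the values of 24184 genes and for all 35 cytokinin genes. This step was taken as 1 read.

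The fit used limma 3.58.1 (R 4.3.3) on the 18966 genes that averaged 0.5 TPM or more, as log2(TPM + 0.5), a scale that compresses the changes of low genes. Functions were lmFit and eBayes with a trend and no block, and p-values were adjusted by Benjamini-Hochberg. The step was tested on simulated data. Single genes were also compared by two-sided exact permutation. Sums, shares and ratios of TPM are descriptions without a test. Tables were made in Python 3.11.15 (pandas 2.3.3, numpy 2.4.6).

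Alternatives were pseudocounts of 0.1 and 1, a filter at a mean of 1 TPM or none at all, scaling by median-of-ratios or by the 75th percentile, removal of the trend along exon length in every sample (lowess, span 0.3), eBayes without trend or robust, leaving out each sample, a block for the replicate number, and a fold limit of 2. No sequences or positions are printed, since the genome used for lengths is TAIR10.1.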

Additional observations from a re-analysis of the deposited data

How the results depend on the processing

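The 10 genes with an adjusted p under 0.05 kept their direction in each of the 16 alternative settings. Over 431 comparisons of a gene with a setting, 374 kept direction and side of the threshold, 36 lost and 10 gained an adjusted p under 0.05, and 11 changed sign, all in genes without a call. Leaving out 1 sample gave 3 to 15 cytokinin genes with an adjusted p under 0.05, the fewest without SNP 1 or SNP 3 and the most without Mock 1, and 2883 to 7924 over all genes against 5619 with all samples. Genes past the fold change and p criterion numbered 5, and 2 to 5 with 1 sample left out. Both scalings gave 3, and a fold limit of 2 gave 0, with 11 at an unadjusted p under 0.05 in limma and no fold limit. With all samples 16.9% of all genes passed the criterion. The matching shares under these other settings are not given, so nothing particular to the cytokinin genes is read from these counts. Under both scalings *LOG5* lost and *CKX5* gained the call, giving 4 higher and 6 lower genes. With median-of-ratios and 75th percentile scaling 31.3% and 31.6% of all genes had a call, and the median of all genes shifted by -0.05 and -0.09 on the log2 scale.

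Without a filter *ARR18* was gained and *CKX3* lost, and without the eBayes trend *AHP5* and *LOG8* were lost. The summed IPT level, at -0.03 on the log2 scale, was -0.089 with median-of-ratios and -0.12 with 75th percentile scaling. Estimates near 0 changed sign for *IPT2* (-0.020 and -0.054 under these scalings, -0.012 to 0.073 with 1 sample left out), *AHK2* (-0.065 with the length trend removed, -0.091 to 0.21 with 1 sample left out), *AHK4* (-0.36 to 0.0071 with 1 sample left out), *AHP2* (0.021 with the length trend removed, -0.19 to 0.048 with 1 sample left out), *AHP6* (-0.0022 with 75th percentile scaling) and *ARR12* (-0.0032 with 75th percentile scaling, -0.18 to 0.24 with 1 sample left out). The cause was not tested. The deviations of same-numbered samples from their group means had correlations of 0.30, -0.0017 and -0.09 across genes, which are not independent replicates. Those of differently numbered samples ran from -0.29 (Mock 3 and SNP 1) to 0.32 (Mock 3 and SNP 2). The numbers were therefore not taken to pair the samples. With the replicate number as a block 7 cytokinin genes (without *AHP5*, *CKX3* and *LOG8*) and 5490 of all genes had an adjusted p under 0.05.

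Depth limits what can be said of *IPT3*, *IPT5*, *IPT7*, *CYP735A1* and *CYP735A2*, which had at most 11 reads in any sample.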
